A study of Homo sapiens with 4 samples.

Results

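The syndecans and glypicans are the families of cell-surface proteins that carry heparan sulfate, and they were examined here as the 10 genes SDC1, SDC2, SDC3, SDC4, GPC1, GPC2, GPC3, GPC4, GPC5 and GPC6. They were picked by symbol from the array's own gene names, out of 29123 named genes on the array. All 10 were on the array, covered by 13 probes, and every one of these probes was well above background in both channels on all 4 arrays. The 10 genes were therefore all among the 27223 genes tested.

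A syndecan crosses the membrane once, and its short cytoplasmic tail binds scaffold and signalling proteins, whereas a glypican is held on the outer membrane by a lipid anchor. Both carry long sulfated sugar chains, joined to serines of the core protein through a xylose, and these chains bind growth factors such as FGF, WNT, HGF and midkine and present them to their receptors. This linkage differs from the mucin-type O-glycosylation that GALNT enzymes start by adding N-acetylgalactosamine to serine or threonine.

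A2780s is an established epithelial ovarian cancer (EOC) cell line. Each of 4 two-colour Agilent arrays set 1 clone, labelled with Cy5, against mock-transfected A2780s control RNA (Ctrl), labelled with Cy3, with no dye swap by the labels. A difference between the dyes at a probe and a difference between clone and Ctrl therefore cannot be told apart. There were 2 GALNT3 KO clones, in which CRISPR/Cas9 was aimed at GALNT3, and 2 GALNT3/T6 KO clones, made by adding shRNA against GALNT6 to GALNT3 KO clones, so the second group carries both modifications. All the cells were A2780s. The replicates of a group are separate clones, and the labels do not say whether the Ctrl of both groups was the same clone. All values below are log2 ratios of the KO channel over the Ctrl channel, a gene is called where its p from limma, adjusted by Benjamini-Hochberg over all genes tested, was at most 0.05, and ± gives the standard error from that fit (n = 2 arrays in each group).

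The targeted genes were read first. GALNT3 stood at 4.80 and 5.08 in clones labelled GALNT3/T6 KO, which goes against the label, and on the GALNT3 KO arrays neither of its channels was well above background. Whether the samples or the dyes of the arrays labelled GALNT3/T6 KO are as labelled could not be settled. If their dyes were the other way round, every signed value against Ctrl in that group would turn, with SDC4 lower and GPC3 higher, and the differences between the groups would change as well. The directions given below are those of the labels, by which Ctrl carried Cy3 on all arrays. The log2 ratios, over 27185 genes measured on all 4 arrays, correlated at 0.84 and 0.92 between the arrays of a group. Between arrays of different groups they correlated at 0.21 to 0.32. The Ctrl signal of the 10 genes differed by -0.34 to 0.13 on the log2 scale between the groups' arrays, and their KO signal by -3.15 to 2.19. What these values mean for the dyes was not tested. GALNT6 lay at -0.47 and -0.38 in GALNT3 KO and at -0.66 and -0.69 in clones labelled GALNT3/T6 KO. Of the 10 epithelial ovarian markers looked at, 8 were called higher in clones labelled GALNT3/T6 KO than in Ctrl, beside 24.8% of all genes. In GALNT3 KO 0 of them were called by limma, with 2 at an unadjusted p under 0.05 by limma and 2 by the methods' t-test, a test that the study names for its other assays. The log2 of the summed KO signal of the 10 epithelial markers was 13.35 to 13.56 in GALNT3 KO and 19.77 to 19.86 in clones labelled GALNT3/T6 KO. That of their Ctrl signal was 13.12 to 13.26 and 15.11 to 15.54. Signals were summed before taking the log2, so the brightest genes set the sum. In clones labelled GALNT3/T6 KO, KRT18 and KRT19 had KO signals of 18.50 to 18.78 and made up most of it. KRT8 was at 16.14 and 17.01, and the other markers were at 13.32 or below. Of 5 fibroblast markers, 2 were called higher and 2 lower in clones labelled GALNT3/T6 KO, beside 47.8% of all genes called. In GALNT3 KO 1 was higher and 1 lower, beside 11.0%. The log2 of the summed KO signal of the fibroblast markers was 10.73 to 10.92 in GALNT3 KO and 12.69 to 13.60 in clones labelled GALNT3/T6 KO. The 3 leukocyte markers stayed between 11.18 and 11.45 in summed KO signal over all arrays, with CD3E called lower in clones labelled GALNT3/T6 KO, and of the 2 endothelial markers tested VWF was called higher there (log2 of the summed KO signal of all 3 listed 9.35 to 9.80 in GALNT3 KO and 9.69 to 10.16 on the others). PECAM1 was too dim to be tested. The part of these shifts in the results below was not tested. In a bulk RNA sample, fewer cells of a type and less RNA in each cell cannot be told apart.

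The sequences of 4 probes are shown, since these are the stretches of RNA that the values below come from and the probes of 1 gene did not always give the same answer. The dimmer SDC1 probe spans an exon junction at chr2:20404051-20405161 (hg19, minus strand). In the frame that starts at its first base it holds 3 codon pairs for serine and glycine, in capitals, the kind of site at which a xylose-linked chain is added. The dimmer SDC4 probe lies at chr20:43959082-43959141 (minus strand), the GPC3 probe joins exons at chrX:132730579-132795768 (minus strand), and the dimmer GPC6 probe lies at chr13:95050795-95050854 (plus strand).
SDC1 probe: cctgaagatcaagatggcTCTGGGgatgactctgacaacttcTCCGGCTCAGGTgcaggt
SDC4 probe: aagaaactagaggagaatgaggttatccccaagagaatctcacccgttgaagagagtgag
GPC3 probe: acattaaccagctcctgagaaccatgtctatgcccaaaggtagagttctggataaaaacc
GPC6 probe: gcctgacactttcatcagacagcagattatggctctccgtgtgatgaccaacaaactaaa

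In clones labelled GALNT3/T6 KO, 8 of the 10 genes were called against Ctrl, beside 47.8% of all genes tested. SDC4, GPC1, GPC2 and GPC5 were higher, beside 24.8% of all genes called higher, and SDC2, GPC3, GPC4 and GPC6 were lower, beside 23.1% called lower. All 6 glypicans and 2 of the 4 syndecans were called. SDC4 and GPC3 had the largest values among the 10, 6.64-fold higher and 7.25-fold lower. The median size of the log2 value was 1.25 over the 10 genes and 0.35 over all genes tested, and the signed medians were -0.18 and 0.03.

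In GALNT3 KO, 1 of the 10 genes, SDC4, was called against Ctrl, beside 11.0% of all genes tested, of which 4.69% were higher and 6.34% lower. The median size was 0.33 over the 10 genes and 0.21 over all genes. Between the groups, SDC4 and GPC1 were called higher and GPC3 lower in clones labelled GALNT3/T6 KO. These 3 of 10 stand beside 23.7% of all genes called, with 11.8% in each direction. The comparison between the groups is made from the same 4 arrays. The labels describe the Ctrl of both groups alike, but its signal was not alike for every gene, as the epithelial markers above show, and the difference of 2 ratios takes in any difference between their Ctrl. With the sign of the arrays labelled GALNT3/T6 KO turned, 8 of the 10 genes were called between the groups, beside 51.5% of all genes, with SDC4 at -3.41 and GPC3 at 2.73.

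**Figure D1:**
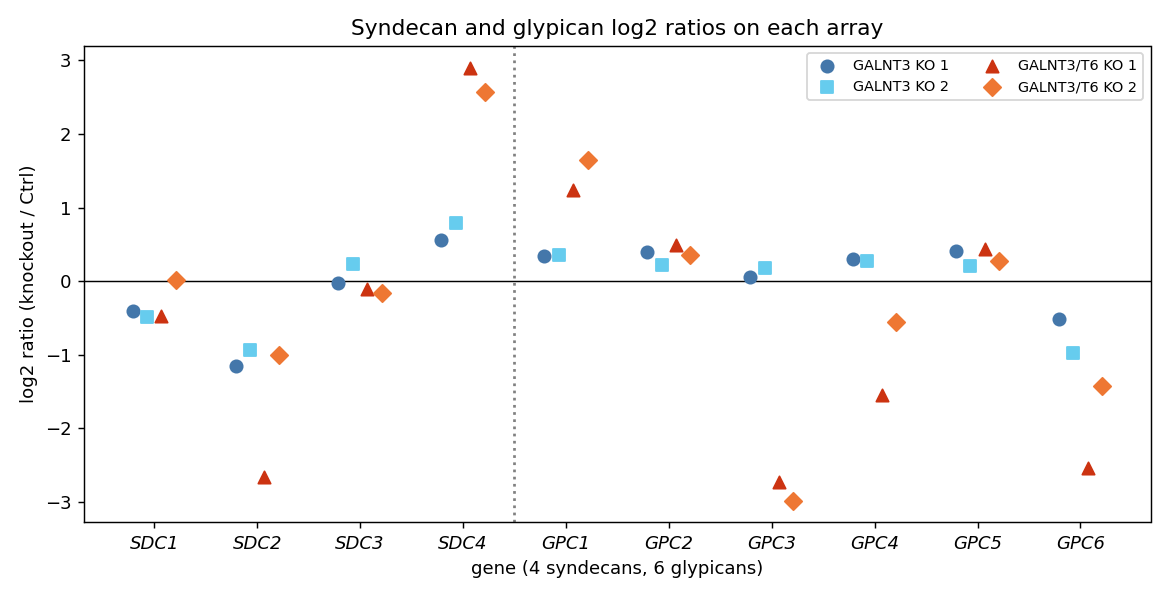
Each point is the log2 ratio of KO over Ctrl (vertical axis) of 1 gene (horizontal axis) on 1 array, with the 4 arrays told apart by colour and shape. SDC4 and GPC1 lie highest and GPC3 lowest in clones labelled GALNT3/T6 KO, where SDC2, GPC4 and GPC6 differ widely between the clones.

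SDC4, the syndecan of focal adhesions, gave log2 ratios of 0.56 and 0.79 in GALNT3 KO and of 2.90 and 2.57 in clones labelled GALNT3/T6 KO. Its Ctrl signal was 11.55 to 11.93 on the log2 scale over the arrays, while the KO signal was 12.33 to 12.37 in GALNT3 KO and 14.25 to 14.83 on the others. All 4 clones were above Ctrl, and the groups did not overlap. The mean was 0.67 ± 0.12 in GALNT3 KO (adjusted p = 0.0421) and 2.73 ± 0.12 in clones labelled GALNT3/T6 KO (adjusted p = 0.000232), a difference of 2.06 ± 0.17 (adjusted p = 0.00237). The other SDC4 probe, 4504 bases away and printed above, read 0.00 and -0.07 in GALNT3 KO and 1.87 and 2.18 on the others. It thus showed the rise in clones labelled GALNT3/T6 KO (2.03 ± 0.11, adjusted p = 0.000303 in a fit over all probes) and the same difference of 2.06 between groups, but no rise in GALNT3 KO (-0.03 ± 0.11, adjusted p = 0.840). The call in GALNT3 KO was also lost without either GALNT3 KO array (adjusted p = 0.282 and 0.417), and the call between the groups was lost without GALNT3 KO clone 1 (1.95, adjusted p = 0.0571).

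SDC2, a syndecan best known from mesenchymal cells, lay below Ctrl in all 4 clones. Its log2 ratios were -1.15 and -0.94 in GALNT3 KO and -2.66 and -1.0 in clones labelled GALNT3/T6 KO, so the second clone of that group sat among the GALNT3 KO clones. The mean on those arrays was -1.83 ± 0.39 (adjusted p = 0.0191), and that in GALNT3 KO was -1.04 ± 0.39 (adjusted p = 0.138). The difference between groups, -0.79 ± 0.56, did not pass the test (adjusted p = 0.424). It came to 0.04 without GALNT3/T6 KO clone 1 (adjusted p = 0.910) and to -1.61 without clone 2 (adjusted p = 0.000129), so a single clone set its value. Fitted without the GALNT3 KO arrays, SDC2 was no longer called against Ctrl (adjusted p = 0.0798).

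SDC1, the main syndecan of epithelia, read -0.41 and -0.49 in GALNT3 KO and -0.48 and 0.01 in clones labelled GALNT3/T6 KO. Neither mean passed the test, at -0.45 ± 0.14 (adjusted p = 0.0974) and -0.23 ± 0.14 (adjusted p = 0.220). The printed SDC1 probe, whose start is 2716 bases from that of the other, gave -0.11, 0.25, 0.12 and 0.07 in the same order, so the dip was not seen with it. SDC3, the neural syndecan, read -0.03 and 0.23 in GALNT3 KO and -0.10 and -0.16 on the others. Its means of 0.10 ± 0.10 and -0.13 ± 0.10 did not pass the test (adjusted p = 0.492 and 0.317).

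GPC1, a glypican with a known role in FGF signalling, was at 0.34 and 0.36 in GALNT3 KO and at 1.24 and 1.64 in clones labelled GALNT3/T6 KO. All clones were above Ctrl without overlap between the groups. The mean of 1.44 ± 0.12 in clones labelled GALNT3/T6 KO was called (adjusted p = 0.00118), the 0.35 ± 0.12 of GALNT3 KO was not (adjusted p = 0.118), and the difference of 1.09 ± 0.17 was called (adjusted p = 0.0132). Without GALNT3 KO clone 1 or clone 2 the difference kept its size, 1.08 and 1.1, but not its call (adjusted p = 0.136 and 0.131).

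GPC3, an oncofetal glypican that restrains Hedgehog signalling in development, was near Ctrl in GALNT3 KO, at 0.06 and 0.18, and far below it in clones labelled GALNT3/T6 KO, at -2.73 and -2.98. The KO signal was 13.35 to 13.42 in the first group and 10.09 to 10.38 in the second, against a Ctrl signal of 13.08 to 13.28 over all arrays. The mean there was -2.86 ± 0.10 (adjusted p = 0.00014), and the groups differed by -2.98 ± 0.14 (adjusted p = 0.000643), a 7.90-fold difference and the largest among the 10 genes. In GALNT3 KO the value of 0.12 ± 0.10 did not pass the test (adjusted p = 0.412). Of all genes tested, the 3 whose 4 log2 ratios lay nearest to those of GPC3 were ENKD1, WDR72 and DLX1, at Euclidean distances of 0.10, 0.20 and 0.23.

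GPC4 is the protein-coding neighbour of GPC3 on chromosome X (GRCh38.p14), with 0 other protein-coding genes between them. It read 0.30 and 0.27 in GALNT3 KO and -1.54 and -0.56 in clones labelled GALNT3/T6 KO. The groups did not overlap, and the clones of the second group lay 0.98 apart. The mean on those arrays was -1.05 ± 0.24 (adjusted p = 0.0224), or -0.56 without clone 1. The difference between the groups was -1.34 ± 0.34 with an adjusted p of 0.0517, just missing the threshold, and in the fit over all probes the same value had an adjusted p of 0.0463.

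GPC6 lies next to GPC5 on chromosome 13 (GRCh38.p14), again with 0 protein-coding genes between them. By the first of the GPC6 probes, the neighbours were called in opposite directions in clones labelled GALNT3/T6 KO. The limits of both calls are given below. GPC6 read -0.52 and -0.98 in GALNT3 KO and -2.54 and -1.43 on the others, with means of -0.75 ± 0.29 (adjusted p = 0.143) and -1.98 ± 0.29 (adjusted p = 0.00604). The difference between the groups, -1.23 ± 0.41, did not pass the test (adjusted p = 0.104). The second GPC6 probe, the printed one, starts 8539 bases from the first and gave 0.31, 0.16, -0.11 and 0.10 on the 4 arrays in the same order. It was not called in any comparison (adjusted p = 0.166, 0.962 and 0.306), so the fall rests on the first probe. The mean of both probes was -1.0 in clones labelled GALNT3/T6 KO.

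GPC5, which binds Hedgehog ligands, read 0.41 and 0.21 in GALNT3 KO and 0.43 and 0.27 on the others, and GPC2, a glypican of the developing nervous system, read 0.39 and 0.22, then 0.49 and 0.35. In both genes all 4 clones were above Ctrl and the groups overlapped. With no dye swap, such a shift on all 4 arrays cannot be told apart from a difference between the dyes. The calls in clones labelled GALNT3/T6 KO, 0.35 ± 0.10 for GPC5 (adjusted p = 0.0403) and 0.42 ± 0.09 for GPC2 (adjusted p = 0.0201), were of changes under 1.5-fold. Both were lost with median centring in place of loess (adjusted p = 0.0646 and 0.146). The differences between groups were 0.04 ± 0.14 and 0.11 ± 0.13 (adjusted p = 0.906 and 0.645).

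**Figure D2:**
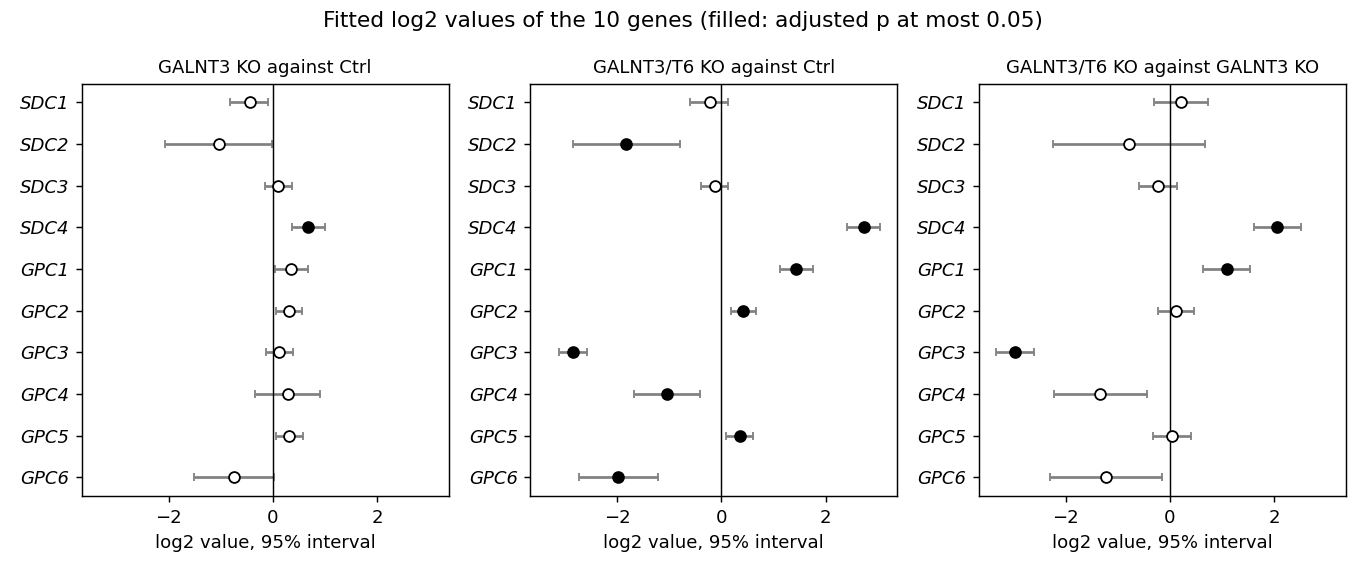
Fitted log2 values (horizontal axis) of the 10 genes (vertical axis) in the 3 comparisons, with bars for the 95% interval from limma and filled points for an adjusted p of at most 0.05. Filled points number 1 in GALNT3 KO against Ctrl, 8 in GALNT3/T6 KO against Ctrl and 3 between the groups.

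The study selected genes on these arrays at p at most 0.05 and at least 1.5-fold, and names no test for that p. With these thresholds on the unadjusted limma p, 2 of the 10 genes (SDC4 and SDC2) would count in GALNT3 KO, beside 9.60% of all genes. In clones labelled GALNT3/T6 KO 6 would count, beside 31.8%, and between the groups 5, beside 26.9%. How many genes were called also rested on which arrays shared 1 estimate of the spread. With the 2 GALNT3 KO arrays fitted alone, 8 of the 10 genes were called, beside 34.7% of all genes, with SDC4, GPC1, GPC2, GPC4 and GPC5 higher and SDC1, SDC2 and GPC6 lower than Ctrl. With the clones labelled GALNT3/T6 KO fitted alone, 4 were called (SDC4, GPC1, GPC3 and GPC6), beside 30.4%.

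**Figure D3:**
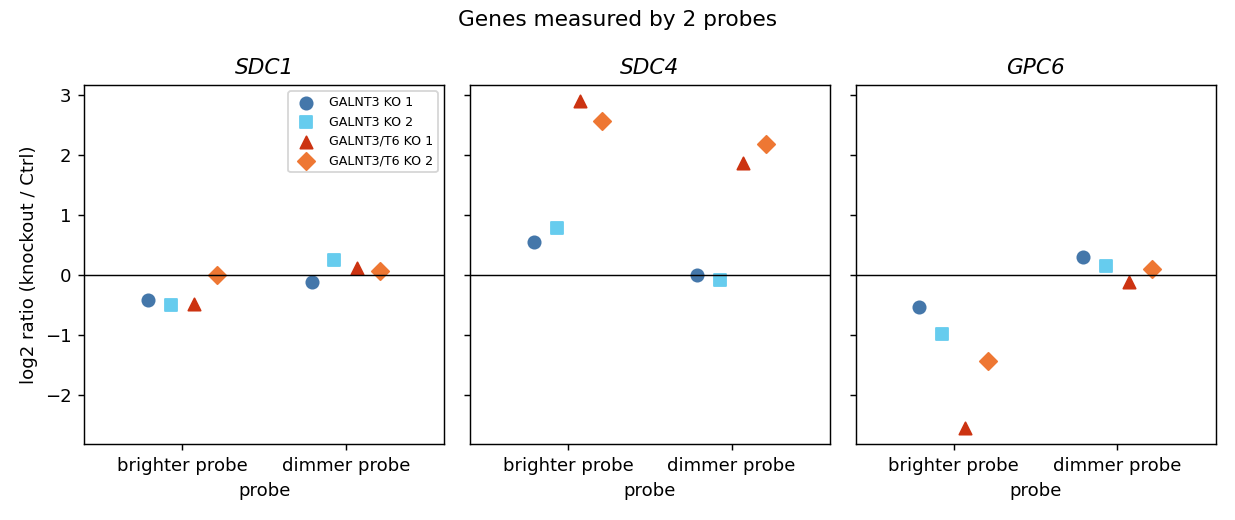
Log2 ratios of KO over Ctrl (vertical axis) on the 4 arrays for the 3 genes with a second probe (horizontal axis: the brighter probe, which stands for the gene, and the dimmer one). Both SDC4 probes rose in clones labelled GALNT3/T6 KO, while the dimmer GPC6 probe stayed between -0.11 and 0.31.

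The promoters of SDC4 and GPC1, which were higher, and of GPC4 and GPC6, which were lower in clones labelled GALNT3/T6 KO, are shown so that the sequence beside genes moving in each direction can be read. They are RefSeq windows of 300 bases, from 250 before to 50 after the transcript start, in GRCh38.p14: chr20:45348375-45348674 (minus strand) for SDC4, chr2:240435413-240435712 (plus strand) for GPC1, chrX:133415440-133415739 (minus strand) for GPC4 and chr13:93226557-93226856 (plus strand) for GPC6. The GPC6 start used there lies 10278 bases inside the gene's RefSeq span. Capitals mark the GC box, GGGCGG on either strand, and in GPC6, which has none, the TATA box TATAAA.
SDC4 promoter: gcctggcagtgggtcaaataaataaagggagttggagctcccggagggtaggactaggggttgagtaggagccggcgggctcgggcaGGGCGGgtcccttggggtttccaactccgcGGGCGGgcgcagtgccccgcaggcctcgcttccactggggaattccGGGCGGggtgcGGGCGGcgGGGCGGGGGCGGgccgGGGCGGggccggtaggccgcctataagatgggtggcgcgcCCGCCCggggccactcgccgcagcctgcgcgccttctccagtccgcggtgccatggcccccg
GPC1 promoter: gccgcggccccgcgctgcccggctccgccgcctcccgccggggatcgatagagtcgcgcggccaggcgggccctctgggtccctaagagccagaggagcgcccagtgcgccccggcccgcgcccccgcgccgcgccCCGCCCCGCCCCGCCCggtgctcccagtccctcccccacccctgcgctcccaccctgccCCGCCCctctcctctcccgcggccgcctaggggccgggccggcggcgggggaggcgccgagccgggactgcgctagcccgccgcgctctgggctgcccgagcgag
GPC4 promoter: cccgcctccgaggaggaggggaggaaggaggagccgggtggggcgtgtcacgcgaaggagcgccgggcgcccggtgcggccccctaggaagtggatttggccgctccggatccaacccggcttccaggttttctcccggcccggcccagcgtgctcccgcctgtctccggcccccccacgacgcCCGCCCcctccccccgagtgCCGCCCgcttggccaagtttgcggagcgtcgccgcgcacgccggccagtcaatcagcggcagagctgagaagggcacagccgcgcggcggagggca
GPC6 promoter: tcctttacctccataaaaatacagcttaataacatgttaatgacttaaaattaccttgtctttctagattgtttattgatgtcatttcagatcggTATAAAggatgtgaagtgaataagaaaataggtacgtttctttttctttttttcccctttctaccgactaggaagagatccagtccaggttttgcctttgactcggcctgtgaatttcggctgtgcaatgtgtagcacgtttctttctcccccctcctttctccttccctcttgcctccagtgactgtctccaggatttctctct

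RefSeq windows of 8 of the 10 genes were used. GPC3 had no entry, and windows on chromosome 8, where the SDC2 probe lies, were left out. SDC1 had 2 windows, which makes 9. The GC box, counted on both strands with overlapping copies counted separately, was in 8 of the 9 and in 45.0% of all 35116 windows in the table. SDC4 held 8 copies, GPC1 4 and GPC4 2. TATAAA was in the windows of GPC5 and GPC6 and in 11.5% of all windows. The E box CAGGTG, on either strand, was in those of SDC3 and SDC1 and in 20.6% of all, and the AP-1 motif TGANTCA was in 0 of the 9 and in 7.71% of all. The printed windows that held GGGCGG, those of SDC4, GPC1 and GPC4, held 0 copies of the other motifs. The GPC6 window had 6 CG pairs, and those of SDC4, GPC1 and GPC4 had 33, 45 and 37, where the median of all windows was 14. The matches describe these windows only.

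The genes that build, trim and read the sugar chains were followed in 8 lists with 87 genes, of which 85 were tested. The lists were chosen with earlier results of these data known. The shares called below therefore describe the lists and are not a test of them. In clones labelled GALNT3/T6 KO 36 were called higher and 22 lower against Ctrl, which is 68.2% beside the 47.8% of all genes. In GALNT3 KO 4 were higher and 6 lower, 11.8% beside 11.0%, and between the groups 21 were higher and 9 lower, 35.3% beside 23.7%. The median log2 value over the lists was 0.26, 0.08 and 0.16 in these comparisons.

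Of 11 enzymes that make the linker and polymerize the chain, 3 were called higher and 5 lower in clones labelled GALNT3/T6 KO. That is 72.7% called, beside 47.8% of all genes. EXT1 and EXT2, which together form the heparan sulfate polymerase, were higher by 1.98 ± 0.11 (adjusted p = 0.000371) and 1.46 ± 0.16 (adjusted p = 0.0026). EXTL3, which adds the first N-acetylglucosamine of the chain, was lower, at -2.35 ± 0.09 (adjusted p = 0.000149). B3GALT6, a galactosyltransferase of the linker, stood at -1.36 ± 0.09 (adjusted p = 0.000612), and EXTL2 at -1.01 ± 0.08 (adjusted p = 0.000959). The 3 called in GALNT3 KO moved the same way and less, with EXT1 at 0.53, EXTL3 at -0.73 and B3GALT6 at -0.48, and each of them differed between the groups too (adjusted p = 0.00437, 0.00171 and 0.0106).

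Of 18 tested enzymes that modify heparan sulfate, 66.7% were called in clones labelled GALNT3/T6 KO, beside 47.8% of all genes. In those clones 6 were higher and 6 lower. SULF1 and SULF2 are endosulfatases that remove 6-O-sulfate outside the cell, and they went opposite ways there. SULF1 read 3.96 and 4.09, a mean of 4.03 ± 0.08 (adjusted p = 9.21e-05), against -0.09 and -0.06 in GALNT3 KO. SULF2 read -2.20 and -0.99, a mean of -1.60 ± 0.29 (adjusted p = 0.0118), and 1.1 and 1.19 in GALNT3 KO, where its mean of 1.14 ± 0.29 did not pass the test (adjusted p = 0.0708). The groups differed by 4.10 in SULF1 and by -2.74 in SULF2 (adjusted p = 0.000419 and 0.0119). HS3ST3A1, a 3-O-sulfotransferase, was 1.73 ± 0.09 higher (adjusted p = 0.000305).

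Both called 6-O-sulfotransferases were lower in GALNT3 KO. HS6ST2 read -1.88 and -1.72 there and -0.30 and -0.40 in clones labelled GALNT3/T6 KO, with means of -1.80 ± 0.09 and -0.35 ± 0.09 (adjusted p = 0.00589 and 0.0311) and a difference of 1.45 ± 0.13 (adjusted p = 0.00263). HS6ST1 had means of -1.04 ± 0.13 and -0.80 ± 0.13 (adjusted p = 0.0261 and 0.00875) and did not pass the test of the difference (adjusted p = 0.462). NDST4, an N-deacetylase and N-sulfotransferase, was 0.75 ± 0.10 in GALNT3 KO and -0.42 ± 0.10 on the others (adjusted p = 0.0303 and 0.0287).

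Among 6 genes that supply precursors, PAPSS2, which makes the sulfate donor PAPS, read 3.88 and 5.16 in clones labelled GALNT3/T6 KO and -1.60 and -1.35 in GALNT3 KO. Its mean of 4.52 ± 0.31 against Ctrl was called (adjusted p = 0.000688), as was the difference of 6.00 ± 0.44 (adjusted p = 0.00168), and the -1.47 ± 0.31 in GALNT3 KO just missed (adjusted p = 0.0526). Its paralog PAPSS1 was at -0.81 ± 0.17 (adjusted p = 0.0168), the PAPS transporter SLC35B3 at -0.85 ± 0.13 (adjusted p = 0.00755), and UXS1, which makes UDP-xylose, at 0.84 ± 0.12 (adjusted p = 0.00517). These 4, 66.7% of the list beside 47.8% of all genes, were those called in clones labelled GALNT3/T6 KO. In GALNT3 KO 0 of the 6 were called by limma, beside 11.0% of all genes. At an unadjusted p under 0.05 there were 3 by limma and 1 by the methods' t-test.

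Of 7 partners of the syndecan tail, 4 were called higher and 2 lower in clones labelled GALNT3/T6 KO. That is 85.7% called, beside 47.8% of all genes. PRKCA, the protein kinase C that SDC4 binds, read 0.38 and 0.04 in GALNT3 KO and 2.82 and 3.12 on the others, a difference of 2.76 ± 0.19 (adjusted p = 0.00132). SDCBP (syntenin), a PDZ scaffold of syndecan tails, was 1.59 ± 0.09 higher than Ctrl (adjusted p = 0.000422), and CASK, another PDZ partner, was at -1.32 ± 0.16 (adjusted p = 0.00353). PDCD6IP (ALIX), which works with syntenin in exosome formation, was the 1 partner called in GALNT3 KO, at -1.13 ± 0.21 (adjusted p = 0.045), and lay at -0.93 ± 0.21 on the others (adjusted p = 0.0232).

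Of 7 genes in the list for release and processing, 4 were called higher and 0 lower by limma in clones labelled GALNT3/T6 KO, which is 57.1% beside 47.8% of all genes called, 24.8% higher and 23.1% lower, and at an unadjusted p under 0.05 0 were lower by limma or by the methods' t-test. ADAM10, a sheddase, was at 1.09 ± 0.12 (adjusted p = 0.00297). ADAM17, MMP7 and MMP9, also proteases that can cut syndecan ectodomains, were at 0.47, 0.51 and 0.34 (adjusted p = 0.0467, 0.0179 and 0.0446). In GALNT3 KO these 3 were at 0.31, 0.26 and 0.29 and were not called. Their differences between the groups were 0.16, 0.25 and 0.05 (adjusted p by limma = 0.680, 0.340 and 0.884). With no dye swap, such shifts on all 4 arrays cannot be told apart from a difference between the dyes. MMP7 was dim, with its Ctrl signal not well above background on the array of GALNT3 KO clone 1. The 7 other proteoglycans that can carry heparan sulfate held 5 genes called higher and 0 lower by limma, 71.4% beside the same 47.8%, with 0 lower at an unadjusted p under 0.05 by limma or by the methods' t-test. CD44 read 0.07 and 0.02 in GALNT3 KO and 5.24 and 5.67 in clones labelled GALNT3/T6 KO, and its mean was 5.46 ± 0.13 (adjusted p = 9.21e-05). The Ctrl signal of CD44 differed as well, at 7.75 to 7.98 on the GALNT3 KO arrays and 9.86 to 10.3 on the others, as did that of SRGN, at 7.47 to 7.80 and 9.45 to 9.88. SRGN, the intracellular serglycin, was at 3.04 ± 0.08 (adjusted p = 9.74e-05), AGRN at 1.19 ± 0.15 (adjusted p = 0.004), COL18A1 at 0.79 ± 0.10 (adjusted p = 0.004) and NRP1 at 0.41 ± 0.12 (adjusted p = 0.0399).

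Of 18 ligands and receptors that bind heparan sulfate, 9 were called higher and 4 lower in clones labelled GALNT3/T6 KO. That is 72.2% called, beside 47.8% of all genes. FGF1 (3.46 ± 0.09, adjusted p = 9.74e-05) and WNT5A (3.57 ± 0.32, adjusted p = 0.00148) were higher. HGF, the ligand of MET, rose in GALNT3 KO (1.01 and 1.14) and fell on the others (-2.85 and -2.87), with a difference of -3.93 ± 0.12 (adjusted p = 0.000419). Pleiotrophin, PTN, a cytokine that binds syndecans, fell in both groups, with -3.05 and -3.18 in GALNT3 KO and -3.66 and -3.54 on the others. Its means were -3.12 ± 0.09 and -3.60 ± 0.09 (adjusted p = 0.00477 and 9.21e-05). FGFR2 was called in GALNT3 KO, at 0.70 ± 0.08 (adjusted p = 0.0234).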

How the data were processed

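Total RNA from 4 A2780s clones was hybridized, each against Ctrl, on 4 arrays, which were of 1 slide as far as known. The authors extracted the spot intensity values with Agilent Feature Extraction, version 8.5.1.1 per the labels and 10.7.3.1 per the file headers, which give probe positions in hg19. The deposited value table holds log10 ratios that equal the rounded Agilent log ratio. It and the deposited log10 ratio of the scanner files were used as alternatives. Each array had 45015 spots, of which 1639 were controls. Of the others, 86.9% to 93.8% in each channel passed the well-above-background flag and 0 were saturated, and the number of arrays limits the precision.

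Mean and background intensities were corrected with normexp (offset 50) and normalized by loess within arrays in limma 3.58.1 (R 4.3.3), leaving out control spots and outlier flags. Signals are given per channel after loess and Aquantile normalization. Probes had to pass that flag in 1 channel or both on each of the 2 arrays of a group, and the brightest such probe stood for its gene. limma fitted all 4 arrays with a mean per group, and its moderated test was adjusted by Benjamini-Hochberg over 27223 genes. No Ctrl was hybridized against Ctrl, so the tests against Ctrl leave out the spread of the Ctrl itself. The genes, lists and rules were chosen with earlier results of these data known. Beyond the 10 genes, the text names GALNT3 and GALNT6, from each list up to 4 genes with the largest called values and any called gene where 5 or fewer were called, and the 3 genes nearest to GPC3. The fit was tested on simulated data. Promoter windows and gene neighbours came from RefSeq tables of GRCh38.p14. Of the listed genes, HS3ST6 was not found on the array and HS3ST2 was too dim to be tested.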

Additional observations from a re-analysis of the deposited data

Results flagged for a closer look

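Among the 10 proteoglycans, the difference between the groups itself passed limma's test for SDC4 (2.06), GPC1 (1.09) and GPC3 (-2.98), given as log2 of the clones labelled GALNT3/T6 KO over GALNT3 KO. Each group has 2 clones, so no single array could be tested against its own group.

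Differences that passed the same test were found for many of the chain-making and chain-binding genes named above. Higher in clones labelled GALNT3/T6 KO were PAPSS2 (6.00), CD44 (5.41), SULF1 (4.10), WNT5A (3.43), SRGN (3.27), FGF1 (3.26), PRKCA (2.76), SDCBP (1.52), EXT1 (1.45), HS6ST2 (1.45), HS3ST3A1 (1.37), EXT2 (1.29), ADAM10 (0.91) and DSE (0.71). Lower there were HGF (-3.93), SULF2 (-2.74), EXTL3 (-1.63), CASK (-1.58), EXTL2 (-1.30), PAPSS1 (-1.27), NDST4 (-1.18), B3GALT6 (-0.88) and FGFR2 (-0.49). The signal of the targeted GALNT3 was at least 53.5-fold higher in clones labelled GALNT3/T6 KO than in GALNT3 KO, where it was not well above background (adjusted p = 0.000419 in the fit). The bound sets the mean KO signal against the lowest signal well above background on the GALNT3 KO arrays. Of these 24 genes, 5 also had a Ctrl signal that was over 1 higher on the log2 scale on the arrays of the clones labelled GALNT3/T6 KO, namely CD44 (2.22), SRGN (2.03), SULF1 (1.46), GALNT3 (1.40) and FGF1 (1.03). The part of the Ctrl in these differences was not tested.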

How the results depend on the processing

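Of the 10 genes, SDC4, GPC1, GPC3 and GPC6 kept their direction and call in clones labelled GALNT3/T6 KO against Ctrl under every alternative run on the gene's value except the methods' t-test, whose adjusted p was over 0.05 for each, the second GPC6 probe and the turned sign given last. In GALNT3 KO, where 1 of the 10 was called, 0 were called with median centring, with the Agilent log ratio, with the deposited value table, with the mean of all probes and by the methods' t-test (at its own p and fold threshold), and 8 with the arrays of the group alone. The p and fold selection gave 2 there and 5 between the groups, where 3 were called. Against Ctrl in clones labelled GALNT3/T6 KO, 8 became 4 with the arrays of the group alone and 2 by the methods' t-test, which called 0, 0 and 0 after Benjamini-Hochberg adjustment in the 3 comparisons. The pathway lists went from 10 called in GALNT3 KO to 3 with the Agilent log ratio and the deposited table and to 32 with the group's arrays alone, and from 58 to 19 by the methods' t-test in clones labelled GALNT3/T6 KO. Of all genes, 34.7% were called with the GALNT3 KO arrays alone and 30.4% with the arrays labelled GALNT3/T6 KO alone. Shares for the p and fold selection and the turned sign are given above. For the other alternatives the share of all genes called was not worked out. Their counts do not show whether these genes moved more than all genes.

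Leaving out 1 array at a time gave 0 to 8 of the 10 genes in GALNT3 KO, 4 to 9 in clones labelled GALNT3/T6 KO and 1 to 6 between the groups, and 0 to 32, 40 to 57 and 8 to 43 pathway genes. A left-out array leaves 1 in its group, assumed to vary like the other group. With the clone number as a replicate block, 0, 7 and 3 of the 10 genes and 2, 48 and 26 pathway genes were called. The labels do not say which GALNT3 KO clone each of the clones labelled GALNT3/T6 KO was made from. The correlation of same-numbered deviations was -0.24. With the numbers crossed, an alternative chosen after seeing the data, 2, 7 and 5 of the 10 genes and 12, 59 and 34 pathway genes were called.

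Apart from the turned sign, values that changed sign, of which SDC4 in GALNT3 KO was the only one called, were these. With the second probe, also chosen after seeing the data, SDC1 came to 0.07 in GALNT3 KO and 0.10 in clones labelled GALNT3/T6 KO, SDC4 in GALNT3 KO to -0.03 and GPC6 in GALNT3 KO to 0.24. With median centring, GPC3 and GPC4 in GALNT3 KO came to -0.16 and -0.01. Leaving out 1 array at a time, SDC1 in clones labelled GALNT3/T6 KO ran from -0.48 to 0.01 and SDC3 in GALNT3 KO from -0.03 to 0.23, and the differences between groups ran from -0.03 to 0.46 in SDC1, from -1.61 to 0.04 in SDC2 and from -0.06 to 0.14 in GPC5. The cause of these changes was not tested.

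Turning the sign of the arrays labelled GALNT3/T6 KO, an alternative chosen after seeing the data, swaps higher and lower against Ctrl and keeps each call there, so that SDC1, SDC2, SDC3, GPC3, GPC4 and GPC6 came to 0.23, 1.83, 0.13, 2.86, 1.05 and 1.98 and SDC4, GPC1, GPC2 and GPC5 to -2.73, -1.44, -0.42 and -0.35. Between the groups it called 8 of the 10 genes and 58 pathway genes, and reversed SDC2 (2.87), SDC3 (0.03), GPC3 (2.73), GPC4 (0.77), GPC6 (2.74), SDC4 (-3.41), GPC1 (-1.80), GPC2 (-0.73) and GPC5 (-0.66).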

Other observations

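The enzymes of chondroitin sulfate, the other chain that syndecans can carry, were called in both directions in clones labelled GALNT3/T6 KO. Of 11, 3 were higher and 3 lower, which is 54.5% called beside 47.8% of all genes. In GALNT3 KO 0 were called by limma, beside 11.0% of all genes. At an unadjusted p under 0.05 there were 4 by limma and 1 by the methods' t-test. CHST11, a chondroitin 4-O-sulfotransferase, stood at -1.22 ± 0.20 (adjusted p = 0.00809), the polymerase subunit CHSY1 at -0.79 ± 0.10 (adjusted p = 0.0043) and CHPF2 at 0.86 ± 0.13 (adjusted p = 0.00708). DSE, the epimerase that turns chondroitin into dermatan sulfate, was at 0.52 ± 0.09 (adjusted p = 0.00999). CHST15 read 0.66 and 2.97 in the clones, so that its mean of 1.81 ± 0.54 (adjusted p = 0.0486) came mostly from the second one.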
